A study of Mus musculus with 10 samples.

Results

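The genes described here are 50 components of the WNT pathway, picked by symbol from the 16697 gene entries of a table of mouse liver expression: 10 WNT ligands, 2 genes of ligand release, 3 R-spondins, 3 LGR receptors of the R-spondins, 2 membrane ligases, 10 frizzled receptors, 2 co-receptors, 8 secreted inhibitors, 2 dishevelled antagonists, 4 genes of beta-catenin and its destruction complex, and 4 TCF/LEF factors.

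WNT ligands are lipid-modified secreted proteins that bind a frizzled receptor and an LRP co-receptor. In the absence of a ligand, a complex built on APC and AXIN marks beta-catenin for degradation. When the receptors are occupied, this complex is held at the membrane, beta-catenin enters the nucleus, and TCF/LEF factors on the DNA switch from repression to activation. R-spondins and their LGR receptors raise the response by removing the ligases RNF43 and ZNRF3, which otherwise clear frizzled from the cell surface. Several targets of the pathway (Axin2, Lgr5, Rnf43, Znrf3, Notum and Nkd1) feed back on it. In the adult liver, endothelial cells near the central vein are a known source of Wnt2, Wnt9b and Rspo3, and the hepatocytes around that vein use the signal to keep their own set of enzymes, such as glutamine synthetase.

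The 3 groups of mouse liver were profiled by RNA sequencing in 10 libraries. Normal liver (NL, n = 4) had no described injection. The tumors of the c-MYC group (n = 3) came from mice that received the oncogene c-MYC and the empty vector pT3-EF1α. The tumors of the c-MYC/FOXO1AAA group (n = 3) came from mice that received c-MYC and, in the same vector, a MYC-tagged FOXO1AAA, a form of the transcription factor FOXO1 that AKT cannot inactivate. All plasmids were given by hydrodynamic tail vein injection with the sleeping beauty transposase, which places them in the genome of the hepatocytes that take them up, so that a tumor library also holds nontumor cells. A label gives the strain as C57BL/6, whereas the protocol text and the methods of the study give FVB, and the sources also differ on whether MCL1 was injected beside c-MYC in the controls. Age and time of collection were not given for the single samples, and the sex of the animals was not used. The sources name no batch. The methods of the study give n as injected mice for the tumors and as livers for NL. The sample titles name no animal, so p-values measure the spread between these samples. In tissue samples, fewer cells of a type and less RNA per cell cannot be told apart.

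Expression is given as FPKM, fragments scaled to gene length and to library size by the authors, from 13.1–20.5 M reads in listed genes per library. The authors' scaling factors were 0.649–0.684 in NL, 1.26–1.29 in c-MYC and 1.45–1.502 in c-MYC/FOXO1AAA, so the number of reads behind an FPKM differed between the groups. Foxo1, which the vector carries, was at 6.67–7.86 FPKM in NL, 5.16–6.45 in c-MYC and 70.1–95.6 in c-MYC/FOXO1AAA. Myc was at 4.10–22.2 FPKM in NL and lower in both tumor groups, at 0.494–0.987 in c-MYC and 0.809–1.04 in c-MYC/FOXO1AAA, against the direction of the injected gene. Whether reads of the injected c-MYC are counted in this entry is not given in the sources used here, so that label could not be checked. The labelled tissue was checked with hepatocyte markers, whose summed FPKM fell from 74128–82241 in NL to 3206–5097 in c-MYC and 817–1468 in c-MYC/FOXO1AAA. Of 8 muscle genes in a list of myogenic markers, 7 passed the filter and all 7 rose in c-MYC/FOXO1AAA versus c-MYC, where 15.9% of all tested genes were called higher. Their summed FPKM was at most 0.0615 in NL, at most 0.0701 in c-MYC and 63.1–99.3 in c-MYC/FOXO1AAA, while Myod1 and Myog had no read in any NL or c-MYC library. This signal was in every c-MYC/FOXO1AAA library, so no comparison without it could be made, and its part in the results below was not tested.

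Versus NL, the share of the tested WNT genes that changed was near that of all genes in both tumor groups. More of those past the filter fell than rose on the scaling of the authors, but some passed it only through NL, where they were high. Without the filter, 5 were called higher and 19 lower in c-MYC versus NL, beside 22.5% and 22.3% of all entries. In c-MYC/FOXO1AAA versus NL, 17 were higher and 13 lower, beside 31.2% and 24.6%. In c-MYC tumors, the feedback gene Znrf3 was called higher than in NL, a call lost without the second c-MYC library. There, several other genes of ligand supply and feedback (Wnt2, Rspo3, Lgr5, Axin2, Notum) fell to at most 7 reads per library, and Rnf43 fell to 99 reads in all. In c-MYC/FOXO1AAA tumors, part of these were measured again at a fraction of the NL level or more. Fzd2, Wnt16, Wnt9a, Nkd2 and Wls were far above both other groups there. Of these, all but Wls passed the filter only through c-MYC/FOXO1AAA, where they were high. Beta-catenin itself (Ctnnb1), Apc, Axin1, Lrp5, Porcn, Tcf7l2 and Fzd7 were not past the 1.5-fold test in any comparison on the scaling of the authors.

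**Figure D1:**
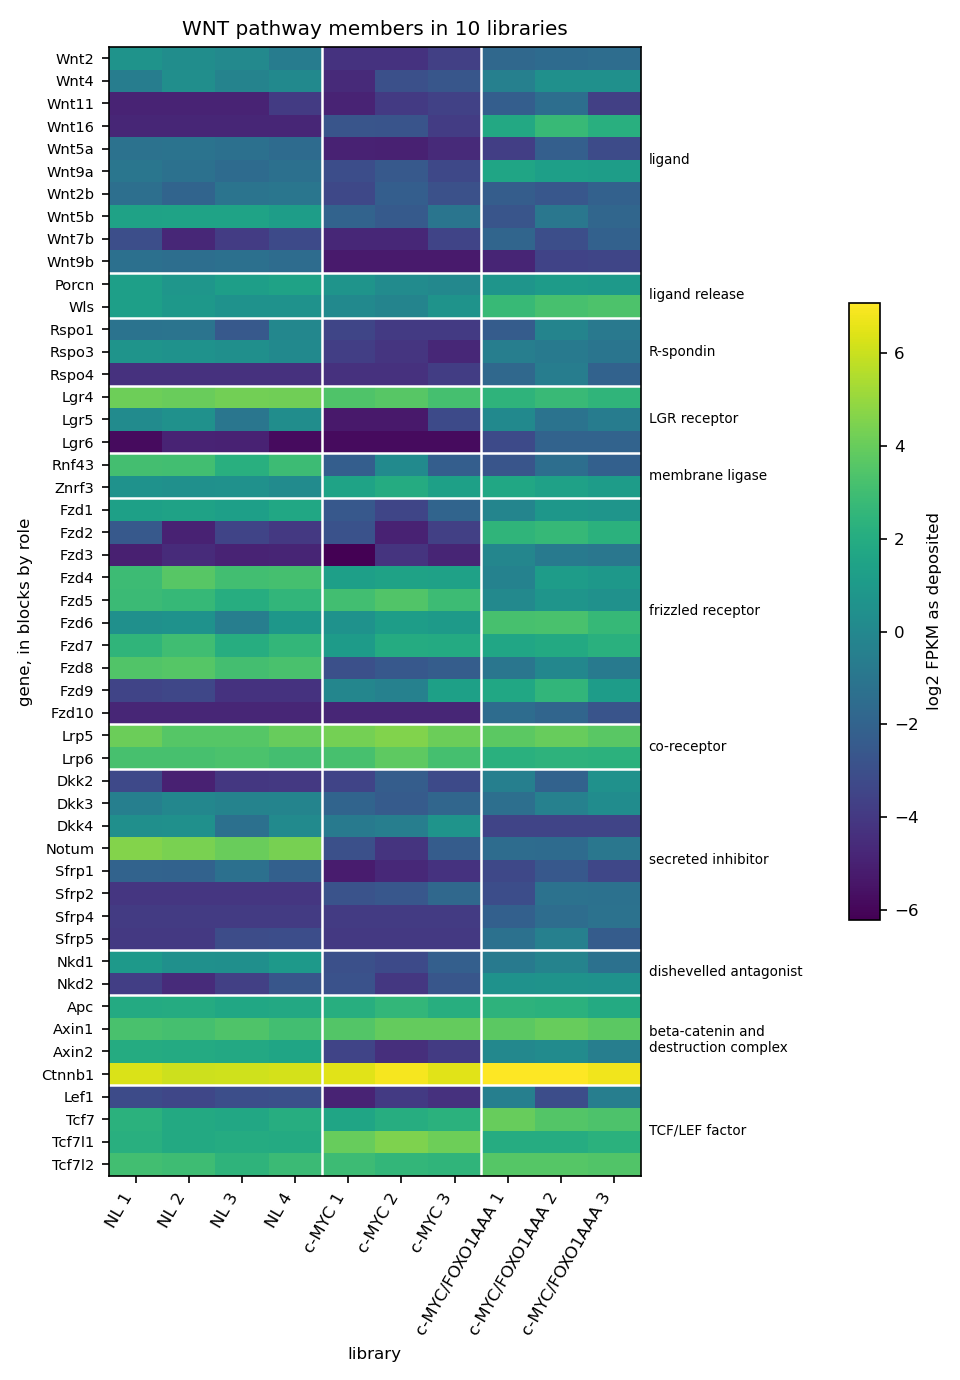
Deposited log2 FPKM of the 50 WNT pathway genes (rows, in blocks by role) in the 10 libraries (columns, NL 4, c-MYC 3 and c-MYC/FOXO1AAA 3), with color from the lowest to the highest value. Ctnnb1 was the brightest row in every library, and Wnt2, Rspo3, Lgr5, Axin2, Notum and Nkd1 were dark in the 3 c-MYC libraries.

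A gene was tested when it reached 1 FPKM in at least 3 libraries, and was called when the change exceeded 1.5-fold at an adjusted p under 0.05 in limma. The filter was passed by 33 of the 50 genes, and 10 of these passed through a single group only (Fzd8, Nkd1, Notum, Rspo3, Wnt2 and Wnt5b through NL, Fzd2, Nkd2, Wnt16 and Wnt9a through c-MYC/FOXO1AAA). In c-MYC versus NL, 4 of the 33 were called higher and 13 lower, where 24.5% of all 14017 tested genes were called higher and 23.6% lower (48.1% in all). In c-MYC/FOXO1AAA versus c-MYC, 16 were called higher and 4 lower, beside 15.9% and 12.7% of all tested genes (28.7% in all). In c-MYC/FOXO1AAA versus NL, 8 were called higher and 11 lower, beside 31.2% and 26.6% (57.8% in all). The first 2 comparisons share the c-MYC libraries, so a low level there enters both.

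With all 50 genes and no filter on 1 FPKM, 5 were called higher and 19 lower in c-MYC versus NL. The shares of all 16697 entries were 22.5% and 22.3% (44.8% in all). Against c-MYC, 28 rose and 4 fell in c-MYC/FOXO1AAA, beside 17.2% and 11.6% (28.8% in all), and for c-MYC/FOXO1AAA versus NL 17 higher and 13 lower, beside 31.2% and 24.6% (55.8% in all). The median log2 fold change of the 50 genes was -0.54 in c-MYC versus NL, where that of all entries was 0.06. It was 1.82 in c-MYC/FOXO1AAA versus c-MYC, or 1.75 with genes that have no reads in a group set at their bound, where that of all entries was 0.07. Against NL, the c-MYC/FOXO1AAA median was 0.20, and that of all entries 0.26. The 2 groups compared did not overlap for 32 of the 50 genes in the first comparison, 39 in the second and 39 in the third, beside 68.7%, 61.7% and 76.3% of all entries. How the authors chose the listed genes is not given, so these counts may still rest on a selection by level. Fzd10 and Sfrp4 had reads in c-MYC/FOXO1AAA alone, and Rspo4 and Lgr6 almost so. Their calls as higher there may come with their being listed at all.

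Directions depend in part on the scaling. When all libraries were brought to the same FPKM total, the median log2 fold change of all tested genes in c-MYC versus NL moved from 0.08 to 1.01, and the share of higher calls among all calls from 51.0% to 78.8%. In c-MYC/FOXO1AAA versus NL the median moved from 0.21 to 1.31 and that share from 54.0% to 79.5%. Of the WNT genes, 11 were then called higher and 11 lower in c-MYC versus NL, and 15 higher and 6 lower in c-MYC/FOXO1AAA versus NL, in place of 4 and 13 and of 8 and 11. The values below are on the scaling of the authors. With a pseudocount of 1 FPKM, which shrinks the changes of low genes, 8 in place of 16 genes were called higher in c-MYC/FOXO1AAA versus c-MYC. Among the calls lost in that comparison were Wnt2, Wnt4, Rspo3, Lgr5, Fzd8, Notum, Nkd1 and Axin2, and those of Wnt4, Wnt9a, Wnt16, Lgr5, Znrf3 and Fzd9 were lost in c-MYC versus NL.

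**Figure D2:**
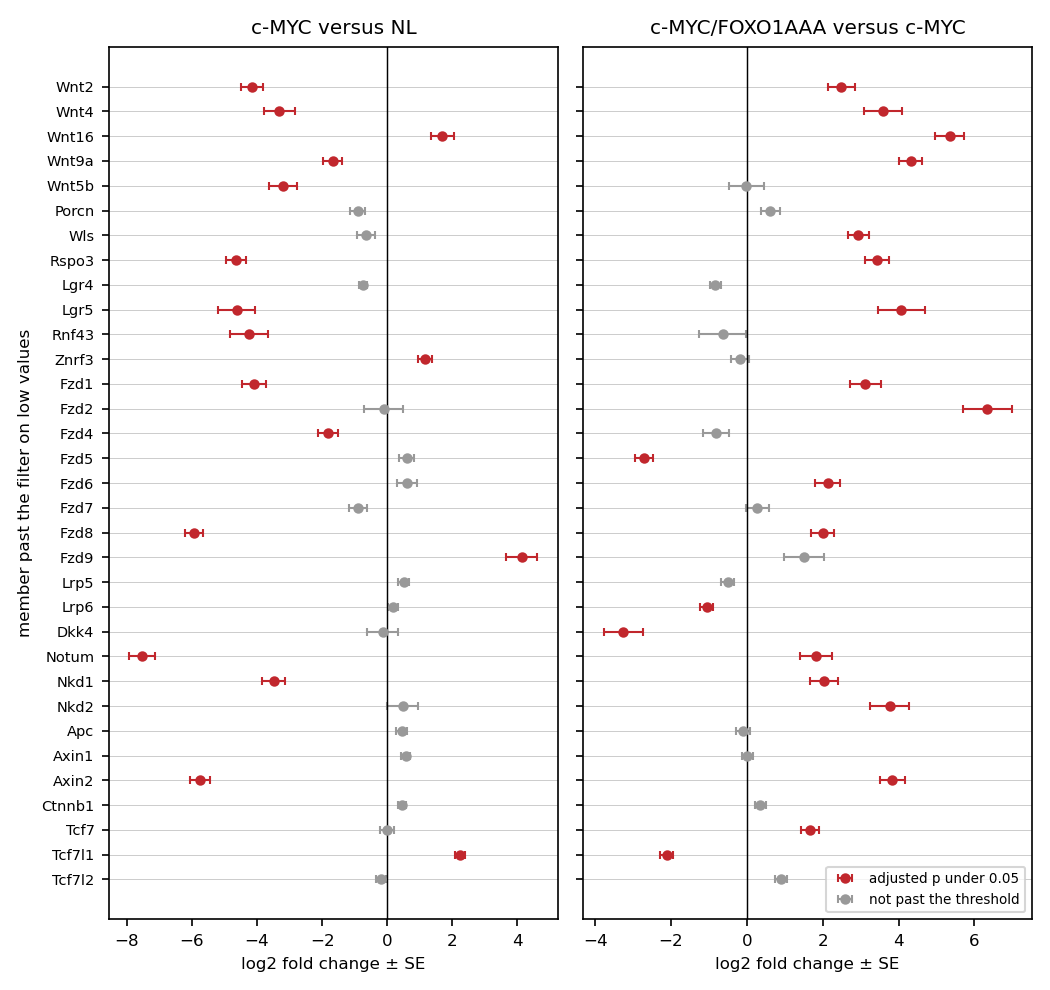
Log2 fold change (x axis, bars are the SE) of the 33 WNT pathway genes past the filter (y axis) in c-MYC versus NL (left) and c-MYC/FOXO1AAA versus c-MYC (right), in red where the limma adjusted p was under 0.05. On the left 13 red points lie below 0 and 4 above; on the right 16 lie above 0 and 4 below.

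Among the ligands, those known from the endothelium of the liver were lowest in c-MYC tumors. Wnt2, a ligand of the beta-catenin branch, was at 1.49, 1.18, 0.999 and 0.593 FPKM in NL, at 0, 0 and 0.0241 in c-MYC, and at 0.252, 0.282 and 0.317 in c-MYC/FOXO1AAA. The 3 groups did not overlap, and the c-MYC group held a single read of the gene. Wnt2 fell in c-MYC versus NL (log2 fold change -4.16 ± 0.34 SE, limma adjusted p = 3.29e-06), a 136-fold difference with a 95% counting interval of 23.8 to 5428. It rose in c-MYC/FOXO1AAA versus c-MYC by 2.49 ± 0.36 (adjusted p = 0.000912) and was below NL by a fitted change of -1.67 ± 0.34 (adjusted p = 0.00864), which was not called at the same FPKM total (-0.57, adjusted p = 0.618) or with a 2-fold threshold (adjusted p = 0.0825). Wnt9b, which is released from the same endothelium, had 0.321–0.385 FPKM in NL, no read in any c-MYC library, and 0.00898–0.0677 FPKM in c-MYC/FOXO1AAA. It did not pass the filter. Against 3 reads in each c-MYC library, its level was at least 10.03-fold lower than in NL (adjusted p without the filter = 1.1e-05).

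Wnt5b and Wnt4 shared the fall in c-MYC tumors and differed afterwards. Wnt5b, a ligand that acts mostly without beta-catenin, was at 2.67, 2.73, 2.76 and 2.21 FPKM in NL, at 0.207, 0.134 and 0.436 in c-MYC, and at 0.103, 0.466 and 0.237 in c-MYC/FOXO1AAA. Both tumor groups lay below every NL library and overlapped each other. Its log2 fold change was -3.21 ± 0.44 (adjusted p = 0.000211) in c-MYC versus NL and -3.22 ± 0.44 (adjusted p = 0.000152) in c-MYC/FOXO1AAA versus NL. Wnt4 was at 0.648, 1.24, 0.806 and 1.06 FPKM in NL, at 0.013, 0.101 and 0.13 in c-MYC, and at 0.726, 1.37 and 1.36 in c-MYC/FOXO1AAA. The c-MYC libraries lay below all others, and the other 2 groups overlapped. Wnt4 had a log2 fold change of -3.31 ± 0.48 (adjusted p = 0.0003) in c-MYC versus NL and rose by 3.59 ± 0.51 in c-MYC/FOXO1AAA versus c-MYC (adjusted p = 0.000444). Without the first c-MYC library, these were -2.72 and 2.99.

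Wnt9a and Wnt16 stood highest in c-MYC/FOXO1AAA. Wnt9a was at 0.464, 0.384, 0.309 and 0.369 FPKM in NL, at 0.0821, 0.144 and 0.0656 in c-MYC, and at 3.01, 2.42 and 2.26 in c-MYC/FOXO1AAA. The groups did not overlap, with c-MYC lowest. The c-MYC/FOXO1AAA mean was 26.4-fold that of c-MYC (log2 fold change 4.32 ± 0.31, adjusted p = 2.56e-06) and 6.72-fold that of NL (2.64 ± 0.29, adjusted p = 4.08e-05). The fall from NL to c-MYC (-1.68 ± 0.29, adjusted p = 0.00411) was not called at the same FPKM total (-0.75, adjusted p = 0.388). Wnt16 had no read in NL, was at 0.116, 0.113 and 0.0331 FPKM in c-MYC, and reached 3.47, 6.59 and 4.53 in c-MYC/FOXO1AAA. The gene thus had reads in every tumor library and in no normal one. The c-MYC libraries held only 7, 7 and 2 reads, at scaled library sizes of 18.4–18.8 M against 8.97–11.0 M in NL. Wnt16 rose by 5.35 ± 0.38 in c-MYC/FOXO1AAA versus c-MYC (adjusted p = 2.21e-06), 55.6-fold in mean FPKM, and was at least 51.9-fold higher than in NL. Its call in c-MYC versus NL (adjusted p = 0.0127) rested on 16 reads, and was lost without the first (adjusted p = 0.0598) or the second c-MYC library (adjusted p = 0.0531). A pseudocount of 0.1 FPKM also lost it (adjusted p = 0.292). Against 3 reads in each NL library, the lower bound of that rise was 0.933-fold, so no rise is shown at that floor.

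The remaining ligands were low in all groups. Wnt5a was at 0.318–0.439 FPKM in NL, 0.0151–0.0233 in c-MYC and 0.0579–0.201 in c-MYC/FOXO1AAA, with no overlap between groups (adjusted p without the filter = 2.82e-05 in c-MYC versus NL and 0.0222 in c-MYC/FOXO1AAA versus c-MYC). Wnt2b was at 0.224–0.47 FPKM in NL, 0.0657–0.176 in c-MYC and 0.131–0.2 in c-MYC/FOXO1AAA. Wnt7b and Wnt11 stayed under 0.35 FPKM in every library, and neither exceeded 3 reads in any NL or c-MYC library.

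Release of the ligands needs PORCN, which attaches the lipid, and WLS, which carries the ligand to the surface. Porcn was at 2.36, 1.67, 2.34 and 2.67 FPKM in NL, at 1.51, 1.07 and 0.947 in c-MYC, and at 1.57, 2.04 and 1.86 in c-MYC/FOXO1AAA. All c-MYC libraries were below all libraries of the other groups, by changes that did not pass the 1.5-fold test (log2 fold change -0.91 ± 0.23, adjusted p = 0.174, in c-MYC versus NL, and 0.62 ± 0.25, adjusted p = 0.91, in c-MYC/FOXO1AAA versus c-MYC). Wls was at 2.38, 1.76, 1.4 and 1.41 FPKM in NL, at 1.01, 0.803 and 1.46 in c-MYC, and at 6.69, 9.18 and 10.1 in c-MYC/FOXO1AAA. The last group lay above both others, which overlapped. Wls rose 7.94-fold in c-MYC/FOXO1AAA versus c-MYC (log2 fold change 2.94 ± 0.28, adjusted p = 3.67e-05) and 4.98-fold versus NL (2.29 ± 0.26, adjusted p = 9.07e-05).

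**Figure D3:**
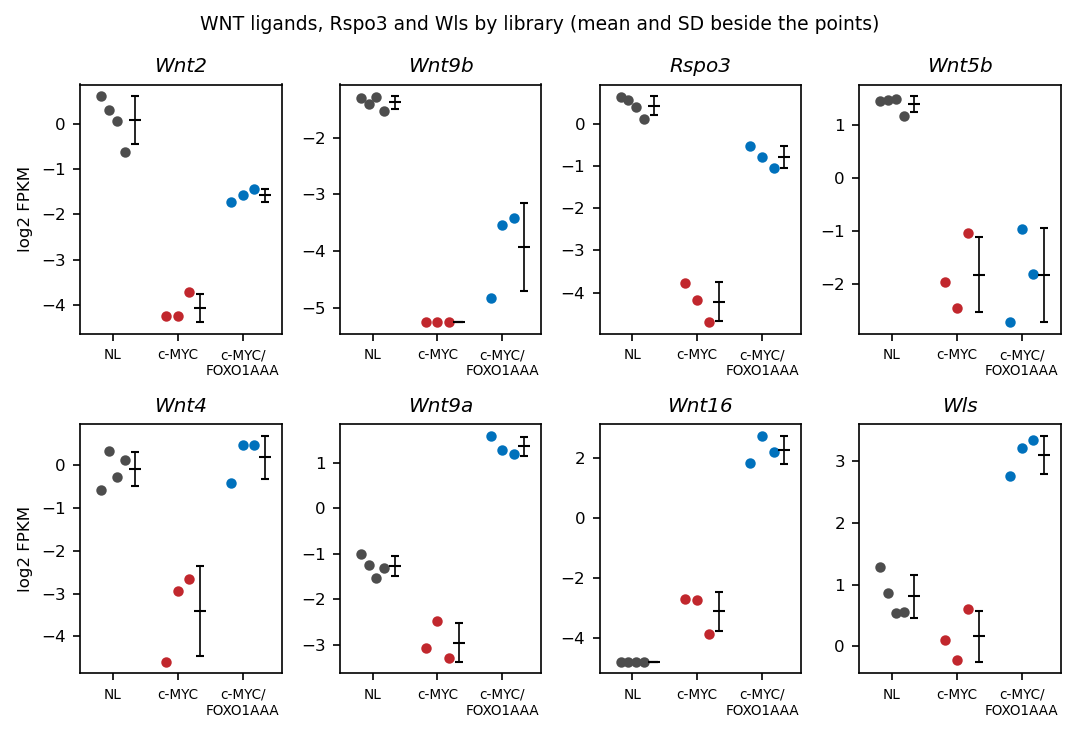
Deposited log2 FPKM (y axis) of 6 WNT ligands, Rspo3 and Wls in each library (points, by group on the x axis), with the mean and SD of each group beside the points. Wnt2, Wnt4, Rspo3 and Wnt9a are lowest in c-MYC, and Wnt9a, Wnt16 and Wls are highest in c-MYC/FOXO1AAA.

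R-spondin transcripts were close to absent in c-MYC tumors, whereas NL had reads of Rspo1 and Rspo3 and c-MYC/FOXO1AAA of all 3. Rspo3, the R-spondin of the central vein, was at 1.53, 1.44, 1.29 and 1.05 FPKM in NL, at 0.0353, 0.0172 and 0 in c-MYC, and at 0.658, 0.543 and 0.446 in c-MYC/FOXO1AAA. The 3 groups were apart, with 3 reads in all c-MYC libraries. In c-MYC versus NL, Rspo3 was lower by a ratio of 76.5 (counting interval 25.7 to 375, log2 fold change -4.65 ± 0.30, adjusted p = 5.67e-07). In c-MYC/FOXO1AAA versus c-MYC it was higher by a ratio of 31.7 (counting interval 10.6 to 156, 3.43 ± 0.32, adjusted p = 2.68e-05). Rspo1 had 0.112–0.911 FPKM in NL, at most 0.0297 in c-MYC and 0.133–0.785 in c-MYC/FOXO1AAA. Rspo4 had no read in NL and 1 in c-MYC, against 0.194–0.621 FPKM in c-MYC/FOXO1AAA (adjusted p without the filter = 0.000947 versus c-MYC).

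The LGR receptors of the R-spondins moved apart. Lgr5, a target of the pathway and a receptor of its enhancers, was at 1.13, 1.4, 0.478 and 1.21 FPKM in NL, at 0, 0 and 0.0808 in c-MYC, and at 1.04, 0.433 and 0.627 in c-MYC/FOXO1AAA. The c-MYC libraries lay below the other groups, which overlapped. Lgr5 was 39.1-fold lower in c-MYC than in NL (log2 fold change -4.63 ± 0.57, adjusted p = 7e-05) and rose 26.0-fold from there to c-MYC/FOXO1AAA (4.07 ± 0.61, adjusted p = 0.00059). All 7 c-MYC reads were in the third library, without which the changes were -5.32 and 4.77. Lgr4, the broadly expressed relative, was at 17.9, 16.4, 18.7 and 18.5 FPKM in NL, at 10.6, 12.5 and 9.03 in c-MYC, and at 5.37, 6.97 and 5.65 in c-MYC/FOXO1AAA. No groups overlapped. Neither single step passed the test (-0.75 ± 0.14, adjusted p = 0.23, and -0.83 ± 0.14, adjusted p = 0.172). The second step was called at an equal median (-1.005, adjusted p = 0.0215) and under quantile normalization (-0.95, adjusted p = 0.0382). The fall from NL to c-MYC/FOXO1AAA passed (-1.58 ± 0.14, adjusted p = 3.44e-05), except at the same FPKM total (-0.48, adjusted p = 0.869). Lgr6 had at most 1 read in any NL library, none in c-MYC, and 0.0912–0.241 FPKM in c-MYC/FOXO1AAA.

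The membrane ligases that remove frizzled took opposite directions in c-MYC tumors. Rnf43 was at 8.58, 8.21, 4.46 and 7.35 FPKM in NL, at 0.178, 1.08 and 0.178 in c-MYC, and at 0.122, 0.347 and 0.195 in c-MYC/FOXO1AAA. Every tumor library lay below every NL library, and the tumor groups overlapped. Its change was -4.25 ± 0.58 (adjusted p = 0.000155) in c-MYC versus NL, or -5.05 without the second c-MYC library, and -4.88 ± 0.58 (adjusted p = 3.46e-05) in c-MYC/FOXO1AAA versus NL. Znrf3, its close relative, was at 1.15–1.45 FPKM in NL, 2.5–3.89 in c-MYC and 2.21–3.23 in c-MYC/FOXO1AAA. The 2.27-fold rise in c-MYC versus NL (1.15 ± 0.22, adjusted p = 0.0263) was no longer called without the second c-MYC library (adjusted p = 0.112) or the fourth NL library (adjusted p = 0.062).

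Frizzled receptors, which bind the ligands, had another gene at the top in each group. Of the 8 tested, 3 fell and 1 rose in c-MYC versus NL, where 48.1% of all genes were called, and 4 rose and 1 fell in c-MYC/FOXO1AAA versus c-MYC, where 28.7% were. In NL the highest mean FPKM was that of Fzd8, followed by Fzd4, Fzd7 and Fzd5. In c-MYC it was Fzd5, and in c-MYC/FOXO1AAA Fzd6, followed by Fzd2. Neighbors in these orders were not tested against each other.

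Fzd8 was at 10.9, 11.7, 8.61 and 9.59 FPKM in NL, at 0.109, 0.151 and 0.182 in c-MYC, and at 0.489, 0.947 and 0.563 in c-MYC/FOXO1AAA. No groups overlapped. It fell 69.2-fold in c-MYC versus NL (-5.95 ± 0.28, adjusted p = 3.91e-08), and the rise to c-MYC/FOXO1AAA (2.002 ± 0.30, adjusted p = 0.00184) left it 15.3-fold below NL (-3.95 ± 0.28, adjusted p = 7.22e-07). That rise was not called under quantile normalization (1.202, adjusted p = 0.0967). Fzd1 was at 2.55, 2.65, 2.44 and 3.21 FPKM in NL, at 0.143, 0.0632 and 0.233 in c-MYC, and at 0.87, 1.77 and 1.64 in c-MYC/FOXO1AAA. Its groups did not overlap, and it fell 18.5-fold (-4.09 ± 0.38, adjusted p = 8.69e-06) and rose 9.74-fold (3.12 ± 0.40, adjusted p = 0.000284) in the first and second comparison. Fzd4, the frizzled of vessels, had 7.58–12.2 FPKM in NL, 2.45–2.68 in c-MYC and 0.773–2.2 in c-MYC/FOXO1AAA, with a fall of 3.6-fold in c-MYC versus NL (-1.82 ± 0.31, adjusted p = 0.00355) that was not called at the same FPKM total (-0.89, adjusted p = 0.237).

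Fzd9 was the frizzled that rose in c-MYC tumors. It was at 0.0395, 0.0463, 0 and 0 FPKM in NL, at 0.879, 0.718 and 2.47 in c-MYC, and at 3.24, 5.74 and 2.13 in c-MYC/FOXO1AAA. Both tumor groups lay above NL, where 2 reads were counted, and they overlapped each other. The ratio of c-MYC to NL was 60.7 (counting interval 16.5 to 505, log2 fold change 4.12 ± 0.49, adjusted p = 5.63e-05), and that of c-MYC/FOXO1AAA to NL was 178 (counting interval 49.0 to 1471, 5.63 ± 0.49, adjusted p = 2.6e-06).

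Fzd2 and Fzd6 rose with FOXO1AAA, and Fzd5 fell. Fzd2 was at 0.148, 0, 0.0559 and 0.0304 FPKM in NL, at 0.104, 0 and 0.0446 in c-MYC, and at 5.53, 6.53 and 4.9 in c-MYC/FOXO1AAA. It was near the floor in 7 libraries and over 100-fold higher on average in the other 3 (114-fold versus c-MYC, 6.34 ± 0.64, adjusted p = 2.42e-05). Fzd6 had 0.678–1.75 FPKM in NL, 1.44–2.24 in c-MYC and 6.41–9.66 in c-MYC/FOXO1AAA, a rise of 4.42-fold versus c-MYC (2.13 ± 0.34, adjusted p = 0.00229). Fzd5 was at 7.04, 6.49, 4.17 and 5.85 FPKM in NL, at 8.19, 11.1 and 7.41 in c-MYC, and at 0.995, 1.6 and 1.41 in c-MYC/FOXO1AAA. Its c-MYC/FOXO1AAA libraries lay below all others, 6.69-fold under c-MYC (-2.71 ± 0.25, adjusted p = 3.05e-05). Fzd3 and Fzd10 were below the filter. Fzd3 had 0.00428–0.0459 FPKM in NL and c-MYC and 0.521–0.918 in c-MYC/FOXO1AAA (adjusted p without the filter = 5e-05 versus c-MYC), and Fzd10 had reads in the c-MYC/FOXO1AAA libraries alone, at 0.11–0.312 FPKM. Fzd7 stayed between 2.08 and 8.05 FPKM across all libraries.

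**Figure D4:**
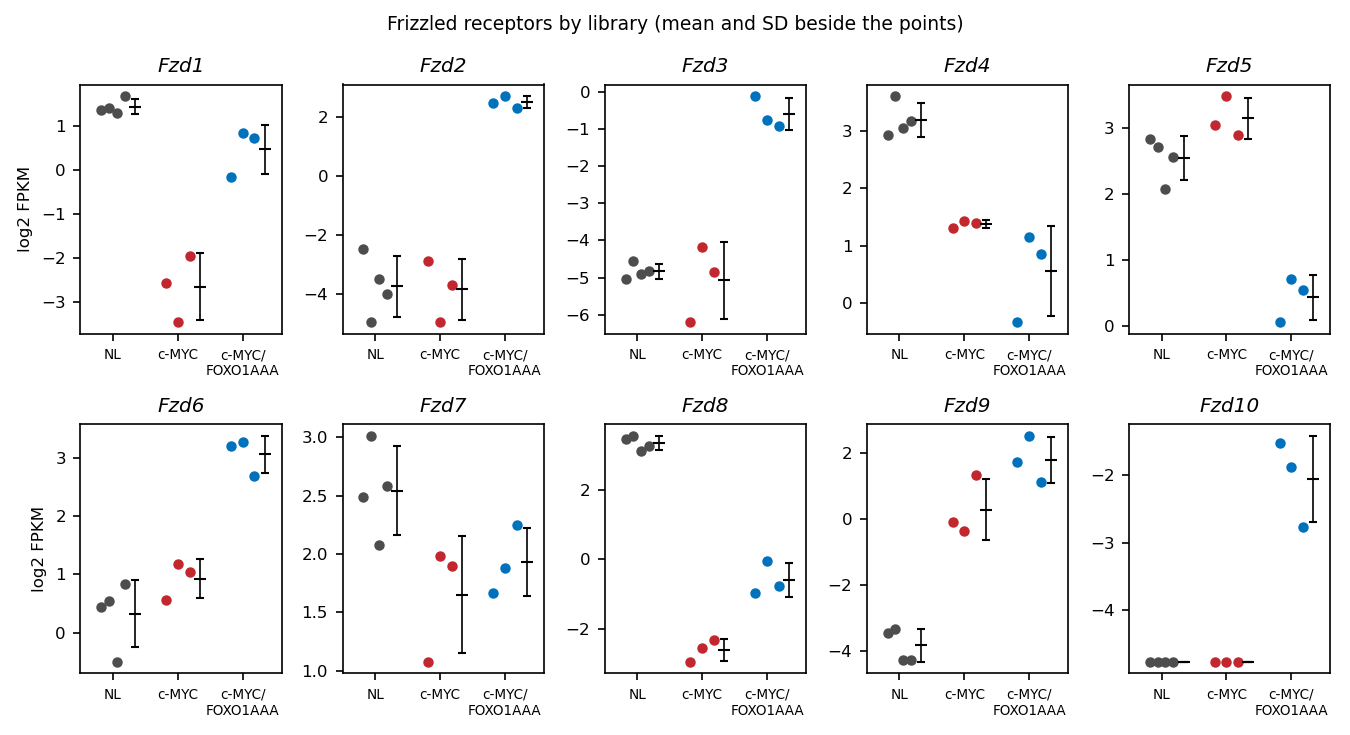
Deposited log2 FPKM (y axis, a separate range in each panel) of the 10 frizzled receptors in each library (points, by group on the x axis), with the mean and SD of each group beside the points. Fzd1 and Fzd8 are lowest in c-MYC, Fzd2, Fzd3, Fzd6 and Fzd10 are highest in c-MYC/FOXO1AAA, and Fzd5 is lowest there.

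The co-receptors LRP5 and LRP6 pair with frizzled to pass on the beta-catenin signal. Neither gene was past the test in c-MYC versus NL, and Lrp6 fell in c-MYC/FOXO1AAA versus c-MYC. At the same FPKM total, both were called higher in c-MYC versus NL (Lrp5 1.432, limma adjusted p = 0.000451, and Lrp6 1.095, adjusted p = 0.00848). With no fold threshold, Lrp5 was called there too (adjusted p = 0.0176). Lrp5 was at 17.3, 12, 11.7 and 15.7 FPKM in NL, at 19.8, 23.4 and 16.8 in c-MYC, and at 13.4, 15.8 and 12.9 in c-MYC/FOXO1AAA, and was not past the test (0.50 ± 0.17, adjusted p = 0.938, and -0.50 ± 0.18, adjusted p = 1). Lrp6 was at 9.24, 9.36, 9.86 and 8.55 FPKM in NL, at 9.18, 13.6 and 8.94 in c-MYC, and at 4.66, 5.22 and 5.03 in c-MYC/FOXO1AAA. The last group lay below both others. Its fall versus c-MYC was 2.13-fold (-1.06 ± 0.16, adjusted p = 0.0259), and was not called without the second c-MYC library (adjusted p = 0.0735) or the first c-MYC/FOXO1AAA library (adjusted p = 0.0793), or at the same FPKM total (-0.89, adjusted p = 0.155).

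Secreted inhibitors block the pathway outside the cell: NOTUM removes the lipid of the ligands, most DKK proteins occupy the co-receptors, and SFRP proteins bind the ligands. Notum had the largest fitted fall of the tested WNT genes in c-MYC versus NL. It was at 24.2, 21.2, 16.4 and 20.5 FPKM in NL, at 0.0739, 0 and 0.148 in c-MYC, and at 0.294, 0.288 and 0.461 in c-MYC/FOXO1AAA. The groups were apart, and c-MYC lay 279-fold below NL (-7.52 ± 0.40, adjusted p = 8.2e-08) and c-MYC/FOXO1AAA 59.2-fold below NL (-5.70 ± 0.40, adjusted p = 4.72e-07). The rise between the tumor groups (1.82 ± 0.43, adjusted p = 0.028) rested on 9 c-MYC reads and was not called without the second c-MYC library (adjusted p = 0.0726) or the third c-MYC/FOXO1AAA library (adjusted p = 0.0865), or under quantile normalization (1.004, adjusted p = 0.373). Of the Notum exon bases, 29.4% are shared with the antisense gene Notumos, and whether reads were counted by strand is not given in the sources used here.

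Dkk4, which is itself a target of beta-catenin, was at 1.24, 1.29, 0.312 and 1.02 FPKM in NL, at 0.497, 0.605 and 1.49 in c-MYC, and had no read in any c-MYC/FOXO1AAA library. NL and c-MYC overlapped. Set at 3 reads per c-MYC/FOXO1AAA library, its level was at least 9.09-fold lower than in c-MYC (-3.26 ± 0.51, adjusted p = 0.00105) and at least 10.1-fold lower than in NL (adjusted p = 0.000196). The other 6 inhibitors were below the filter. Sfrp1 was at 0.204–0.375 FPKM in NL, at most 0.0249 in c-MYC and 0.07–0.145 in c-MYC/FOXO1AAA. Sfrp2 had no read in NL, and Sfrp4 none in NL or c-MYC. Sfrp5 had none in c-MYC, and 0.134–0.687 FPKM in c-MYC/FOXO1AAA. Dkk2 was at 0.217–1.38 FPKM in c-MYC/FOXO1AAA and at most 0.172 elsewhere, and Dkk3 at 0.674–0.916 FPKM in NL, 0.158–0.243 in c-MYC and 0.35–1.15 in c-MYC/FOXO1AAA.

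NKD1 and NKD2 bind dishevelled inside the cell and dampen the signal. Nkd1, a feedback target, was at 1.94, 1.33, 1.28 and 1.95 FPKM in NL, at 0.0898, 0.07 and 0.179 in c-MYC, and at 0.548, 0.783 and 0.386 in c-MYC/FOXO1AAA. No groups overlapped, with a fall of 14.4-fold (-3.49 ± 0.35, adjusted p = 1.81e-05) and a rise of 5.07-fold (2.02 ± 0.37, adjusted p = 0.0064), not called under quantile normalization (1.21, adjusted p = 0.162). The remaining gap to NL (-1.47 ± 0.35, adjusted p = 0.0254) was not called without any of 4 single libraries, with adjusted p of 0.0561 without the first NL, 0.0581 without the fourth NL, 0.0558 without the first c-MYC/FOXO1AAA and 0.102 without the third c-MYC/FOXO1AAA library, nor at the same FPKM total (-0.37, adjusted p = 0.842). Nkd2 was at 0.0323, 0, 0.0366 and 0.119 FPKM in NL, at 0.0973, 0.0189 and 0.117 in c-MYC, and at 1.45, 1.48 and 1.46 in c-MYC/FOXO1AAA. Its rise versus c-MYC was 18.8-fold (3.76 ± 0.51, adjusted p = 0.000288).

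Inside the cell, Axin2 was called in each comparison, while Ctnnb1, Axin1 and Apc did not pass the 1.5-fold test. Axin2, the best known target and negative regulator of the pathway, was at 3.87, 3.74, 3.45 and 2.97 FPKM in NL, at 0.0427, 0 and 0.0213 in c-MYC, and at 0.955, 1.12 and 0.66 in c-MYC/FOXO1AAA. The 3 groups did not overlap, and the c-MYC group held 3 reads. Axin2 was lower in c-MYC than in NL by a ratio of 167 (counting interval 56.6 to 812, -5.76 ± 0.30, adjusted p = 8.01e-08), and the c-MYC/FOXO1AAA level exceeded that of c-MYC by a ratio of 44.5 (counting interval 15.0 to 218, 3.84 ± 0.32, adjusted p = 8.75e-06). It stayed 3.86-fold below NL in c-MYC/FOXO1AAA (-1.92 ± 0.30, adjusted p = 0.00122), a call that was lost at the same FPKM total (-0.82, adjusted p = 0.281).

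Ctnnb1, which encodes beta-catenin, was at 80.6, 66.8, 68.4 and 73.9 FPKM in NL, at 88.5, 120 and 89.8 in c-MYC, and at 133, 135 and 112 in c-MYC/FOXO1AAA. Every tumor library lay above every NL library, with log2 fold changes of 0.45 ± 0.13 (adjusted p = 1) in c-MYC versus NL and 0.36 ± 0.14 (adjusted p = 1) in c-MYC/FOXO1AAA versus c-MYC that did not exceed 1.5-fold by the test. Axin1, the scaffold, was at 9.71, 8.85, 10.7 and 8.32 FPKM in NL, at 11.3, 15.1 and 15.4 in c-MYC, and at 13.3, 15.7 and 13.1 in c-MYC/FOXO1AAA (0.56 ± 0.14, adjusted p = 0.813, and 0.01 ± 0.15, adjusted p = 1). Apc, the other scaffold, was at 3.77, 3.84, 3.2 and 3.49 FPKM in NL, at 4.31, 6.09 and 4.3 in c-MYC, and at 5.13, 4.78 and 3.81 in c-MYC/FOXO1AAA (0.44 ± 0.17, adjusted p = 1, and -0.09 ± 0.18, adjusted p = 1). Ctnnb1 was 1.75-fold higher in c-MYC/FOXO1AAA than in NL (0.80 ± 0.13, limma adjusted p = 0.098). In c-MYC versus NL, all 3 genes were called higher at the same FPKM total (adjusted p = 0.000202 for Ctnnb1, 0.000119 for Axin1 and 0.00187 for Apc). With no fold threshold they were called too (adjusted p = 0.00885, 0.0038 and 0.0384). Transcript levels of these 3 genes do not measure the amount of beta-catenin protein.

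**Figure D5:**
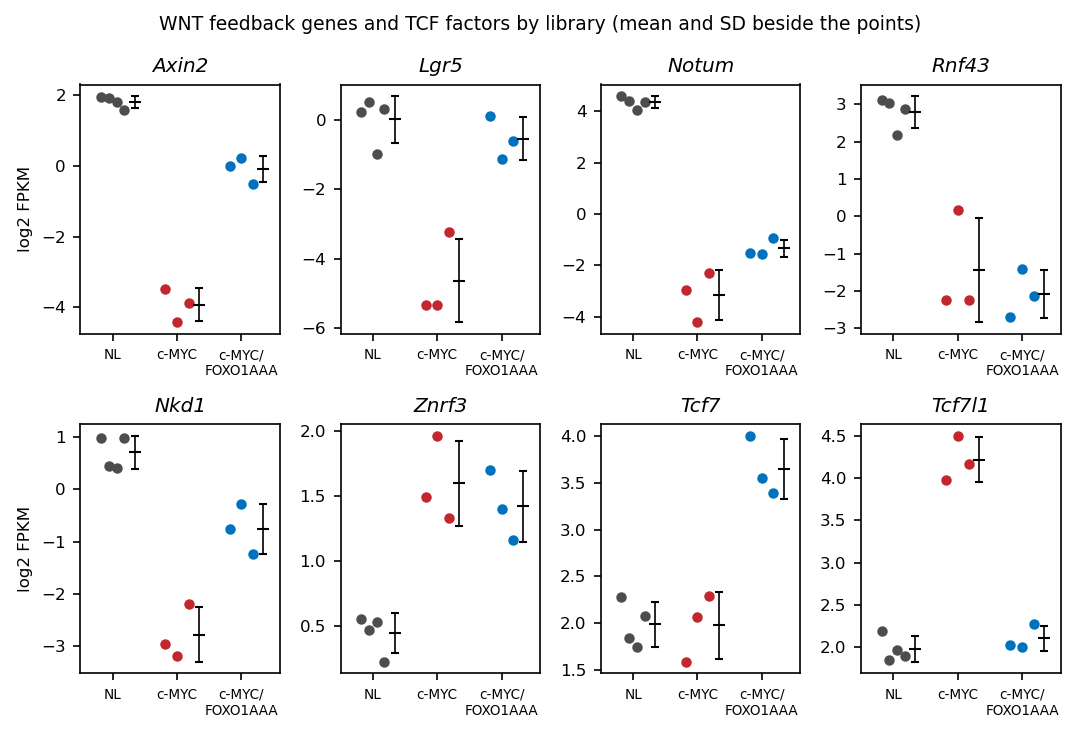
Deposited log2 FPKM (y axis, a separate range in each panel) of 6 feedback genes, Tcf7 and Tcf7l1 in each library (points, by group on the x axis), with the mean and SD of each group beside the points. Axin2, Lgr5, Notum and Nkd1 are lowest in c-MYC, Rnf43 is low in both tumor groups, Tcf7l1 is highest in c-MYC and Tcf7 in c-MYC/FOXO1AAA.

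The TCF/LEF factors bind the target genes, with TCF7L1 known mainly as a repressor and LEF1 mainly as an activator. Tcf7l1 had 3.54–4.51 FPKM in NL, 15.7–22.6 in c-MYC and 3.95–4.78 in c-MYC/FOXO1AAA. The c-MYC libraries stood above both other groups, which overlapped, by 4.82-fold versus NL (2.24 ± 0.15, adjusted p = 2.7e-06) and 4.41-fold versus c-MYC/FOXO1AAA (-2.11 ± 0.16 for c-MYC/FOXO1AAA versus c-MYC, adjusted p = 1.6e-05). Tcf7 had 3.29–4.78 FPKM in NL, 2.94–4.81 in c-MYC and 10.4–15.9 in c-MYC/FOXO1AAA, a rise of 3.2-fold versus c-MYC (1.66 ± 0.23, adjusted p = 0.00179). Tcf7l2, the main TCF of liver, was at 8.2, 7.73, 5.45 and 7.14 FPKM in NL, at 7.39, 5.89 and 5.5 in c-MYC, and at 12, 11.8 and 11.2 in c-MYC/FOXO1AAA. Its c-MYC/FOXO1AAA libraries lay above all others by changes not past the test (0.90 ± 0.17, adjusted p = 0.131, versus c-MYC, and -0.18 ± 0.16, adjusted p = 1, for c-MYC versus NL). At the same FPKM total, Tcf7l2 was called higher in c-MYC/FOXO1AAA versus c-MYC (1.073, adjusted p = 0.0258). Lef1 was at 0.078, 0.0609, 0.0882 and 0.096 FPKM in NL, at 0, 0.0305 and 0.0156 in c-MYC, and at 0.699, 0.0865 and 0.674 in c-MYC/FOXO1AAA. The second c-MYC/FOXO1AAA library was within the NL range, the other 2 were above it, and the ratio to c-MYC was 28.7 (counting interval 9.59 to 141, adjusted p without the filter = 0.00536).

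Promoter sequence was read from RefSeq (GRCm38.p6) as windows of 250 bases before and 50 after a start site, which matched 31 of the 50 genes with 41 windows. Searched on both strands were CTTTGAT, a TCF/LEF site, GTAAACA, a FOXO site, and CACGTG, the E-box that MYC binds. A TCF/LEF match was in windows of 2 genes (Wnt5b, Wnt11), beside 3.73% of all 32851 windows, a FOXO match in 1 (Tcf7), beside 3.65%, and an E-box in 4 (Fzd9, Lef1, Rspo4, Wnt9a), beside 7.15%. A match is a description of letters, not of a bound site. Lef1, Rspo4 and Wnt11 did not pass the filter, and their windows are not shown. Windows are shown of Tcf7 (chr11:52282546-52282845, minus strand), Fzd9 (chr5:135250998-135251297, minus strand), Wnt9a (chr11:59306680-59306979, plus strand) and Wnt5b (chr6:119449337-119449636, minus strand, 1 of 3 windows). They hold such a match in genes past the filter whose level differed between groups. The starts of Tcf7, Fzd9 and Wnt5b are internal starts of the gene. Annotated Fzd9 reaches to base 135251230, so its E-box lies within the gene. The window of Axin2 (chr11:108920099-108920398, plus strand) is shown since it is the standard target and held none. All windows are written 5′ to 3′ on the strand of the gene, with the match in capitals.
Tcf7: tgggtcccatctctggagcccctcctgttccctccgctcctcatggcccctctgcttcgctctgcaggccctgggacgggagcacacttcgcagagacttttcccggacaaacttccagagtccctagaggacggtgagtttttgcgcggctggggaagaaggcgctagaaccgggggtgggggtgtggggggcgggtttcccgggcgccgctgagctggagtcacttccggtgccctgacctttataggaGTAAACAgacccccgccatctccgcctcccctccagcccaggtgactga
Fzd9: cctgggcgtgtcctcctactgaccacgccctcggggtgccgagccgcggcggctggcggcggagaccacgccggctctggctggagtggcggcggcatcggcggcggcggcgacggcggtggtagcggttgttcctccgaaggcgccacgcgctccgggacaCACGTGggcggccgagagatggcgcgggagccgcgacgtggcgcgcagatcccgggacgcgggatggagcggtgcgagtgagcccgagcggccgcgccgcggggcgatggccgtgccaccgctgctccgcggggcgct
Wnt9a: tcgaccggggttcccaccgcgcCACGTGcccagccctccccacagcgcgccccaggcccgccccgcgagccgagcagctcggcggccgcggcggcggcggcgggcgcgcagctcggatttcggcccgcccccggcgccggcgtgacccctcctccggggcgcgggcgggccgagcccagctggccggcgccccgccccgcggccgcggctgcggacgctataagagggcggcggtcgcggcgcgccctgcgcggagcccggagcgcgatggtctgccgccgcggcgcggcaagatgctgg
Wnt5b: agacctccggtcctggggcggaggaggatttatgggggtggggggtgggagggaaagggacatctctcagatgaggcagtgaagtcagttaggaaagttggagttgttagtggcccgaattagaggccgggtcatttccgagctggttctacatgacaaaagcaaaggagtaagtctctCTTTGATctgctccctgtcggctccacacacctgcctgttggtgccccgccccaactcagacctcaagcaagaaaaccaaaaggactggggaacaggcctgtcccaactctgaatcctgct
Axin2: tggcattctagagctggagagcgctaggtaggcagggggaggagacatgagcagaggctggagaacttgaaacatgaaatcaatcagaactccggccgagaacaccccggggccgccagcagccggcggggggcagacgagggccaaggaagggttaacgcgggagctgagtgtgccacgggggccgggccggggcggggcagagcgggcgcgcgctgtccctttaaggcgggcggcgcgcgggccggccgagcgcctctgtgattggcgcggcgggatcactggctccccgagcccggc
The FOXO match of Tcf7 begins at base 2 counted from the start site, the TCF/LEF match of Wnt5b lies at -71, with negative positions counted upstream, and the E-boxes of Fzd9 and Wnt9a at -88 and -228. Tcf7 was highest in c-MYC/FOXO1AAA, Wnt5b lowest in both tumor groups, Fzd9 higher in both, and Wnt9a lowest in c-MYC and highest in c-MYC/FOXO1AAA. A link between a match and these levels was not tested.

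Of 47 other WNT pathway genes in the table (dishevelled, kinases, co-repressors, glypicans, planar polarity and others), 37 were tested. In c-MYC versus NL, 7 were called higher and 3 lower, beside 24.5% and 23.6% of all tested genes (48.1% in all). The largest changes were in the planar polarity gene Celsr2 (3.56 ± 0.40, adjusted p = 5.66e-05) and the co-receptor Ptk7 (2.90 ± 0.22, adjusted p = 3.05e-06), which rose, and in the co-repressor Tle3 (-2.73 ± 0.30, adjusted p = 6.54e-05) and the SFRP-like inhibitor Frzb (-2.54 ± 0.72, adjusted p = 0.0252), which fell. In c-MYC/FOXO1AAA versus c-MYC, 10 were called higher and 4 lower, beside 15.9% and 12.7% (28.7% in all). The inhibitor Apcdd1 rose from 0.019–0.0584 to 2.77–8.42 FPKM (5.80 ± 0.46, adjusted p = 4.29e-06), the glypican Gpc3 from 0.455–1.65 to 7.69–30.6 (4.12 ± 0.64, adjusted p = 0.000846), and Tle3 from 0.514–1.44 to 10.6–14.4 (3.95 ± 0.33, adjusted p = 8.08e-06). Against NL, 14 were called higher and 4 lower in c-MYC/FOXO1AAA, beside 31.2% and 26.6% (57.8% in all).

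Pericentral liver genes, whose expression in hepatocytes is known to need WNT signaling, were low in both tumor groups. All 14 in the list were called lower in c-MYC versus NL and in c-MYC/FOXO1AAA versus NL, beside 23.6% and 26.6% of all tested genes. Glul, glutamine synthetase, was at 300.1, 258, 261 and 249 FPKM in NL, at 46.5, 52.4 and 43.8 in c-MYC, and at 31.7, 34.4 and 38.4 in c-MYC/FOXO1AAA, so that Axin2 rose between the tumor groups and Glul did not (-0.45 ± 0.11, adjusted p = 1). Oat, which acts beside it in nitrogen metabolism, had means of 264, 47.4 and 31.1 FPKM in NL, c-MYC and c-MYC/FOXO1AAA. In c-MYC/FOXO1AAA versus c-MYC, 4 of the 14 were called higher and 1 lower (3 in all without the second c-MYC/FOXO1AAA library), beside 15.9% and 12.7% of all tested genes. The vitamin C enzyme Gulo rose by 2.79 ± 0.47 (adjusted p = 0.0023), the cytochrome Cyp2e1 by 2.75 ± 0.63 (adjusted p = 0.0136) to a mean of 63.5 FPKM against 7752 in NL, Cyp1a2 by 2.19 ± 0.56 (adjusted p = 0.0322) and Lect2 by 1.68 ± 0.30 (adjusted p = 0.00945), while the receptor Nr1i3 fell (-2.08 ± 0.40, adjusted p = 0.00798).

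Periportal genes, which WNT signaling holds down in hepatocytes, were low in the tumors too. Of 10, 9 were called lower and 1 higher in c-MYC versus NL, beside 23.6% and 24.5% of all tested genes. Between the tumor groups, 8 were lower and 2 higher in c-MYC/FOXO1AAA, beside 12.7% and 15.9%. Their summed levels were 6548–7288, 1212–1389 and 91.6–273 FPKM in NL, c-MYC and c-MYC/FOXO1AAA. Hepatocyte markers numbered 6, of which 5 were lower in c-MYC versus NL, and 4 lower and 1 higher in c-MYC/FOXO1AAA versus c-MYC. The shares of all tested genes beside these counts are the same.

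Markers of other cells that make or receive WNT signals differed between the groups. In c-MYC versus NL, 24.5% of all tested genes were called higher and 23.6% lower, beside the marker counts here and in the next paragraph. In c-MYC/FOXO1AAA versus c-MYC, these shares were 15.9% and 12.7%. The 8 sinusoidal endothelial markers summed to 54.9–70.9 FPKM in NL, 10.9–19.0 in c-MYC and 28.7–42.9 in c-MYC/FOXO1AAA. Of the 7 tested, 5 were lower in c-MYC versus NL, among them Clec4g with means of 33.5, 0.132 and 0.476 FPKM in the 3 groups, while the pan-endothelial Cdh5 was at 4.58, 4.58 and 25.9 FPKM and the only one called in c-MYC/FOXO1AAA versus c-MYC. The 8 stellate cell and fibroblast markers summed to 85.5–108, 14.1–43.8 and 388–462 FPKM. Of these, 4 were lower and 1 higher in c-MYC versus NL, and 5 higher in c-MYC/FOXO1AAA versus c-MYC. Dcn had means of 69.7, 4.52 and 236 FPKM, whereas the stellate gene Lrat was at 3.83, 0.0746 and 0.255. Both sums were lowest in c-MYC, as were Wnt2, Rspo3, Wnt4 and Fzd1, but single markers differed from them, since Cdh5 was level in NL and c-MYC and Stab2, at 3.29, 0.373 and 0.212 FPKM, had its lowest mean in c-MYC/FOXO1AAA. The part of these cells in the levels of the WNT genes was not tested.

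The 6 Kupffer cell markers summed to 186–331 FPKM in NL, 64.2–99.0 in c-MYC and 25.8–45.1 in c-MYC/FOXO1AAA, with 3 lower in c-MYC versus NL, and 2 lower and 1 higher in c-MYC/FOXO1AAA versus c-MYC. Biliary markers (5 genes) summed to 19.8–27.6, 17.3–32.1 and 29.9–37.8 FPKM, and of the 4 tested 2 rose and 1 fell in each of the first 2 comparisons. T cell markers, 4 in the table, summed to 2.48–3.38, 2.14–2.63 and 1.99–2.59 FPKM, with none called in c-MYC versus NL and 1 of 2 tested lower in c-MYC/FOXO1AAA versus c-MYC. B cell markers, 3 in the table, summed to 0.382–1.93, 0.412–0.931 and 7.49–12.1 FPKM, and 1 of 2 tested rose in c-MYC/FOXO1AAA versus c-MYC. That gene was Cd79a.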

How the data were processed

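RNA was sequenced from 10 mouse liver libraries. The authors counted reads by gene, added gene symbols and deposited log2 FPKM. The values show a prior count of 2, scaled to the library, under the log2, and per the submitters' notes GRCm38 and FastQC 0.11.7 were used. Aligner, counter and filter are not given in the sources used here. Of 17069 entries, 372 had no symbol or value and were left out.

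From these values, whole reads (tolerance 0.02) were recovered with a single solution for 99.96% of genes, and FPKM are those reads on the authors' scaling. Counting intervals (exact, 95%) and the floor of 3 reads per library cover counting error only. The deposited log2 values were tested in limma 3.58.1 (R 4.3.3) with treat, 2-sided, above 1.5-fold, with trend and robust, over 14017 genes with at least 1 FPKM in 3 libraries, Benjamini-Hochberg adjusted. Log2 fold changes understate changes of low genes. The test was checked on simulated data, and the filter, pseudocount, scaling, fold threshold, variance estimate, samples in the fit, block and single libraries were varied. Members and lists were chosen with earlier results of these data known. Values per library are given for up to 12 called members with the largest change in each of 2 contrasts and for 12 fixed genes, and of other lists up to 5 called genes with the largest change are named, with Glul, Oat, Cyp2e1 and Cyp1a2 always. Exon overlaps between genes were taken from GENCODE (GRCm38). The replicate numbers did not pair the samples.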

Additional observations from a re-analysis of the deposited data

Results flagged for a closer look

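In NL, the group with 4 libraries, 3 of the 45 WNT genes with reads there had a library far from the other 3 by Dixon's ratio, which chance gives in about 1 of 20 groups. Sfrp1 was at 0.375 FPKM in the third NL library and at 0.204–0.228 in the others. Wnt11 was at 0.0323 FPKM in the fourth NL library, which is 1 read, and at 0 in the others. Wnt5b was at 2.21 FPKM in the fourth NL library and at 2.67–2.76 in the others.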

How the results depend on the processing

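The 14 pericentral genes stayed called in both tumor groups versus NL under 21 of 22 alternatives, and 10 of them under the remaining one, a filter on a mean log2 FPKM of at least 0. Of the WNT genes higher in c-MYC versus NL (4), a pseudocount of 1 left 1, that filter left 2, the same FPKM total gave 11, no fold threshold 9, a 2-fold threshold 2, and leaving out single libraries 2 to 4 (2 without the second c-MYC library). Of those lower (13), the mean filter left 4. Between the tumor groups, the 16 higher in c-MYC/FOXO1AAA became 8 with a pseudocount of 1, 28 without the filter and 5 with the mean filter, and the 4 lower became 2 with a pseudocount of 1. For c-MYC/FOXO1AAA versus NL, the 8 higher became 17 without the filter, 3 with the mean filter and 15 at the same total, and the 11 lower became 6 with the mean filter and 6 at the same total. The mean filter tests fewer genes; the cause of the other shifts was not tested. Of the other pathway genes, 25, 22 and 6 were called in c-MYC versus NL (reported 10) at the same total, with no fold threshold and with 2-fold, 27 between the tumor groups (reported 14) with no fold threshold, and 32 and 29 in c-MYC/FOXO1AAA versus NL (reported 18) at the same total and with no fold threshold. Of the pericentral genes called in c-MYC/FOXO1AAA versus c-MYC (5), 3 were left by a pseudocount of 1, 3 by quantile normalization and 2 by 2-fold, 9 came with no fold threshold, and 3 to 6 when single libraries were left out (3 without the second c-MYC/FOXO1AAA library).

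Uncalled changes turned sign in these cases. At the same total, Lgr4 (0.18), Porcn (0.0135), Tcf7l2 (0.75) and Wls (0.27) turned in c-MYC versus NL and Apc (0.0792) between the tumor groups, where Axin1 turned at an equal median (-0.16). With single libraries left out, Apc ranged from -0.18 to 0.0746 and Axin1 from -0.13 to 0.0922 between the tumor groups, and Lrp6 from -0.0287 to 0.28 in c-MYC versus NL. Over all alternatives for single genes, 1466 values kept call and direction, 55 lost the call, 19 gained one and 11 turned.

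Samples with the same replicate number had correlations of deviations from -0.04 to 0.03, so the numbers do not pair them. With the replicate number as a block, the WNT genes called were 3 higher and 13 lower in c-MYC versus NL, 16 and 4 between the tumor groups, and 8 and 11 in c-MYC/FOXO1AAA versus NL. Among the calls reported for these genes, those lost were Znrf3 in c-MYC versus NL (adjusted p = 0.0753) and Nkd1 in c-MYC/FOXO1AAA versus NL (adjusted p = 0.0891). Where a group holds few reads, the fold is limited by depth.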
